A study of Mus musculus with 12 samples.

Results

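Cytochrome P450 enzymes of families 1 to 3 were examined in the liver transcriptome of ageing mice. The members were the genes annotated as protein coding whose symbol begins with Cyp1, Cyp2 or Cyp3 followed by a subfamily letter and a number. This rule gave 60 of the 55487 genes in the deposited tables, and it used no measured value. The members lie on chromosomes 19 and 7 (15 genes each), 5 (10 genes), 15 and 4 (8 genes each), 9 (2 genes), and 17 and 3 (1 gene each).

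P450 enzymes of these families are heme proteins of the endoplasmic reticulum that insert an oxygen atom into their substrates, using electrons passed on by the reductase Por and by cytochrome b5. In liver they clear most drugs and many foreign chemicals, and they also act on steroids, bile acids, fatty acids, retinoids and vitamin D. Many of the genes are switched by ligand-activated receptors, among them CAR (Nr1i3), PXR (Nr1i2) and the aryl hydrocarbon receptor (Ahr), and several mouse members differ between the sexes under the control of growth hormone.

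There were 12 male mice, between 16 and 18 months old, divided into 4 groups of 3. Fasted and fed knockout (KO) mice were Foxo3 flox/flox with the Alb-cre transgene, whose albumin promoter drives Cre in hepatocytes. Fasted and fed control mice were floxed at Foxo3 and Cre-negative, so the floxed alleles were common to all groups and Cre was not. Fed mice ate ad libitum, and fasted mice were without food overnight. Foxo3 encodes a forkhead transcription factor restrained by insulin signalling. The labels call the samples biological replicates and say nothing on litters or days, so the p-values measure the spread between these samples.

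Libraries held 17520058 to 22414976 counts, and 15862 genes had enough counts to be tested. The hepatocyte marker Alb was at 46900 to 89200 TPM (transcript abundance scaled by gene length and library size). Foxo3 itself was at 46.6 to 53.6 CPM (counts scaled to library size, not to gene length) in fasted KO and 58.8 to 62.2 CPM in fed KO libraries, against 38.1 to 44.3 CPM in fasted control and 44.5 to 50.4 CPM in fed control libraries. It was thus higher in every library labelled KO than in the control libraries of the same feeding state. A count over a whole floxed gene does not check its deletion, so the genotype rests on the labels. Several libraries stood apart in single lists. In fed control liver 3, the summed interferon response genes reached 443 CPM against at most 191 CPM elsewhere and the stellate cell and fibroblast markers 620 CPM against at most 349 CPM. In fasted control liver 3, the B and plasma cell markers reached 759 CPM against at most 97 CPM. In fed KO liver 1, the acute phase gene Saa1 was at 2110 CPM against at most 328 CPM, and Saa2 at 1840 CPM against at most 94.4 CPM. Relative to the other fed control livers, 14 of the tested P450 genes were higher in fed control liver 3 and 30 lower, with a median log2 difference of -0.31 against 0 over all tested genes. Acute phase genes, which are known to rise as P450 genes fall in inflammation, also varied, with ranges that overlapped except between fed KO and fed control livers, and without a test: the summed level of the 16 listed genes was 14000 to 33600 CPM in fasted KO, 24000 to 45200 CPM in fed KO, 16500 to 27000 CPM in fasted control and 13500 to 18600 CPM in fed control livers. The part of these differences in the P450 results was not tested, and calls that were lost without one of these libraries are given beside the gene.

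Of the 60 members, 44 passed the filter on low counts. Another 6 (Cyp2b23, Cyp2c66, Cyp2j7, Cyp2j12, Cyp2j13 and Cyp2w1) had 0 counts in every library. The remaining 10 (Cyp2b19, Cyp2c65, Cyp2d34, Cyp2j8, Cyp2j11, Cyp2s1, Cyp2t4, Cyp3a41a, Cyp3a41b and Cyp3a57) had at most 14 counts in any library and were not tested. Together the members took 1.73% to 2.86% of each library's TPM. Cyp2e1, which oxidises ethanol, acetone and paracetamol, was the most abundant member in every liver, at 5260 to 12400 TPM, and held 30.4% to 52.2% of the members' TPM. No other member exceeded 2410 TPM, a value reached by Cyp3a11, the main mouse counterpart of human CYP3A4.

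After Cyp2e1, the order of mean levels was Cyp3a11 (1510 TPM), Cyp2d26 (1260 TPM), Cyp2a5 and Cyp2f2 (1110 TPM each), Cyp3a25 (981 TPM), Cyp2d10 (803 TPM), Cyp2c29 (769 TPM), Cyp2d9 (750 TPM), Cyp2c37 (675 TPM), Cyp2c50 (627 TPM) and Cyp2j5 (571 TPM). The ranges over livers of neighbours in this order overlapped, and only Cyp2e1 stood clear of the member after it. Cyp2a5 is the coumarin hydroxylase of mouse liver, Cyp2f2 activates naphthalene and is known from periportal hepatocytes, and Cyp2j5 forms epoxides of arachidonic acid. Cyp2j5 was the steadiest tested member, with a ratio of 1.35 between its highest and lowest liver, followed by Cyp2d22 (1.38) and Cyp2d10 (1.44). At the other end stood Cyp2b9, with a ratio of 962, Cyp2b13 (520) and Cyp2a4 (70.5). The lowest level of Cyp2b13 rests on 1 count. No ratio was computed for Cyp3a16, which was at 0 to 1.38 TPM.

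**Figure D1:**
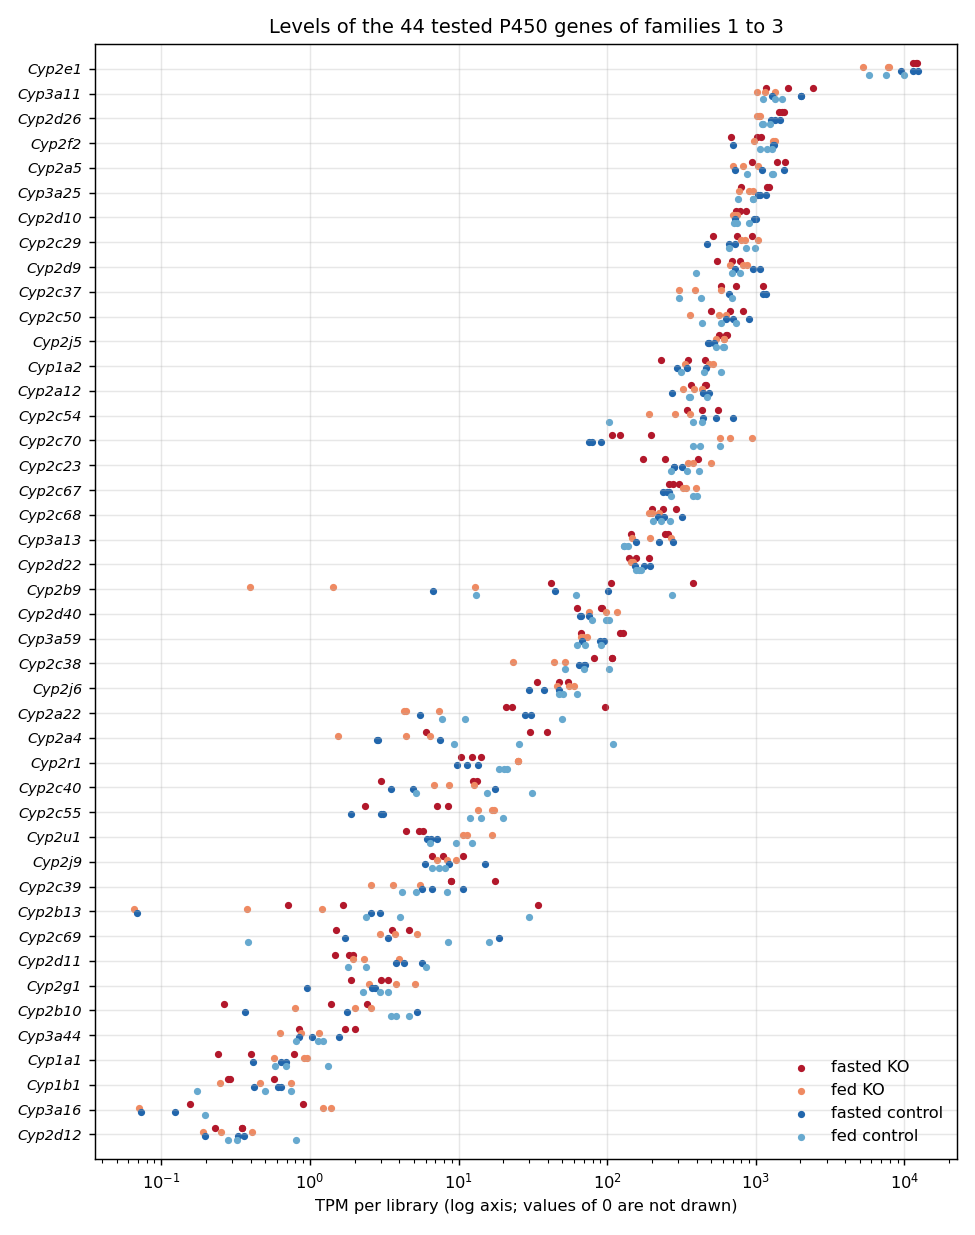
TPM of each of the 44 tested P450 genes (rows, ordered by mean) in each of the 12 livers (points, coloured by group) on a log axis. Cyp2e1 lies alone at the top, from 5260 to 12400 TPM, and the points of Cyp2b9 run from 0.394 to 379 TPM.

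**Figure D2:**
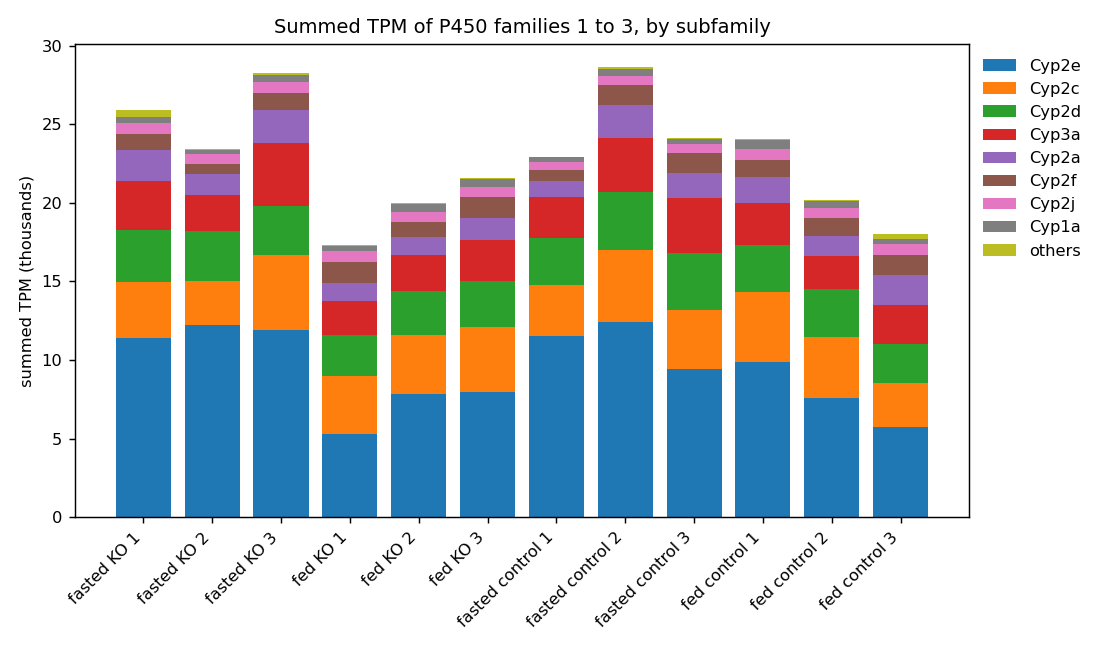
Summed TPM of the members in each liver (bars, drawn in units of 1000 TPM), stacked by subfamily. The Cyp2e segment, which is Cyp2e1 alone, makes up 30.4% to 52.2% of each bar, and the whole bar ranges from 17300 to 28600 TPM.

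Summed by subfamily, the Cyp2e level averaged 11800 ± 440 TPM in fasted KO livers and 7000 ± 1510 TPM in fed KO livers, and 11100 ± 1520 TPM in fasted control livers and 7740 ± 2080 TPM in fed control livers (SD, n = 3 each). The 15 Cyp2c genes together were nearly level, at 3730 ± 967 TPM in fasted KO and 3880 ± 243 TPM in fed KO livers, and 3890 ± 657 TPM in fasted control and 3700 ± 864 TPM in fed control livers. Single Cyp2c genes nevertheless moved in both directions, as described below for Cyp2c70, Cyp2c55, Cyp2c38 and Cyp2c39. The 9 Cyp3a genes summed to 3140 ± 863 TPM in fasted KO and 2320 ± 228 TPM in fed KO livers, and to 3170 ± 487 TPM in fasted control and 2420 ± 307 TPM in fed control livers. Cyp2b genes had the largest spread, at 189 ± 198 TPM in fasted KO and 7.26 ± 7.68 TPM in fed KO livers, against 55 ± 50.8 TPM in fasted control and 133 ± 154 TPM in fed control livers. These sums are descriptions and were not tested.

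With fasting, Cyp2c70 and Cyp2r1 fell in both genotypes, Cyp2c55 fell in control livers and Cyp2u1 in KO livers, and Cyp2c38 and Cyp2c39 rose in KO livers. Averaged over genotypes, Cyp2e1 and Cyp2d26 rose as well. In fasted against fed KO livers, 5 of the 44 tested members passed an adjusted p of 0.05 in edgeR's quasi-likelihood test (11.4%), 2 higher and 3 lower, where 2.48% of all tested genes passed (1.36% higher and 1.12% lower). In fasted against fed control livers 3 members passed (6.82%), all lower, beside 4.14% of all tested genes (2.05% higher and 2.09% lower). In the mean of both genotypes 7 members passed (15.9%), 3 higher and 4 lower, beside 9.07% of all tested genes (4.55% higher and 4.52% lower). The 3 fasting comparisons are not independent, since the mean is made of the other two.

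Changes of members were larger in size than those of the average gene but had no common direction. The median size of the log2 fold change with fasting was 0.49 over members and 0.19 over all tested genes in KO livers, and 0.43 and 0.22 in control livers. The signed medians were 0.07 over members and -0.01 over all genes in KO livers, and 0 for both in control livers. All 3 fasted KO livers lay above all 3 fed KO livers in TPM for 6 members and below them for 5, where 11.7% and 10.9% of all tested genes did so. For fasted against fed control livers the counts were 4 and 8, beside 8.95% and 10.1% of all tested genes. Without fasted KO liver 1, fasted KO liver 3 or fed KO liver 2, the KO count fell to 2 (Cyp2c70 and Cyp2r1), and without fed KO liver 1 to 3. The count for the mean fell to 4 without fed KO liver 2, and without fed control liver 3 it was 10.

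**Figure D3:**
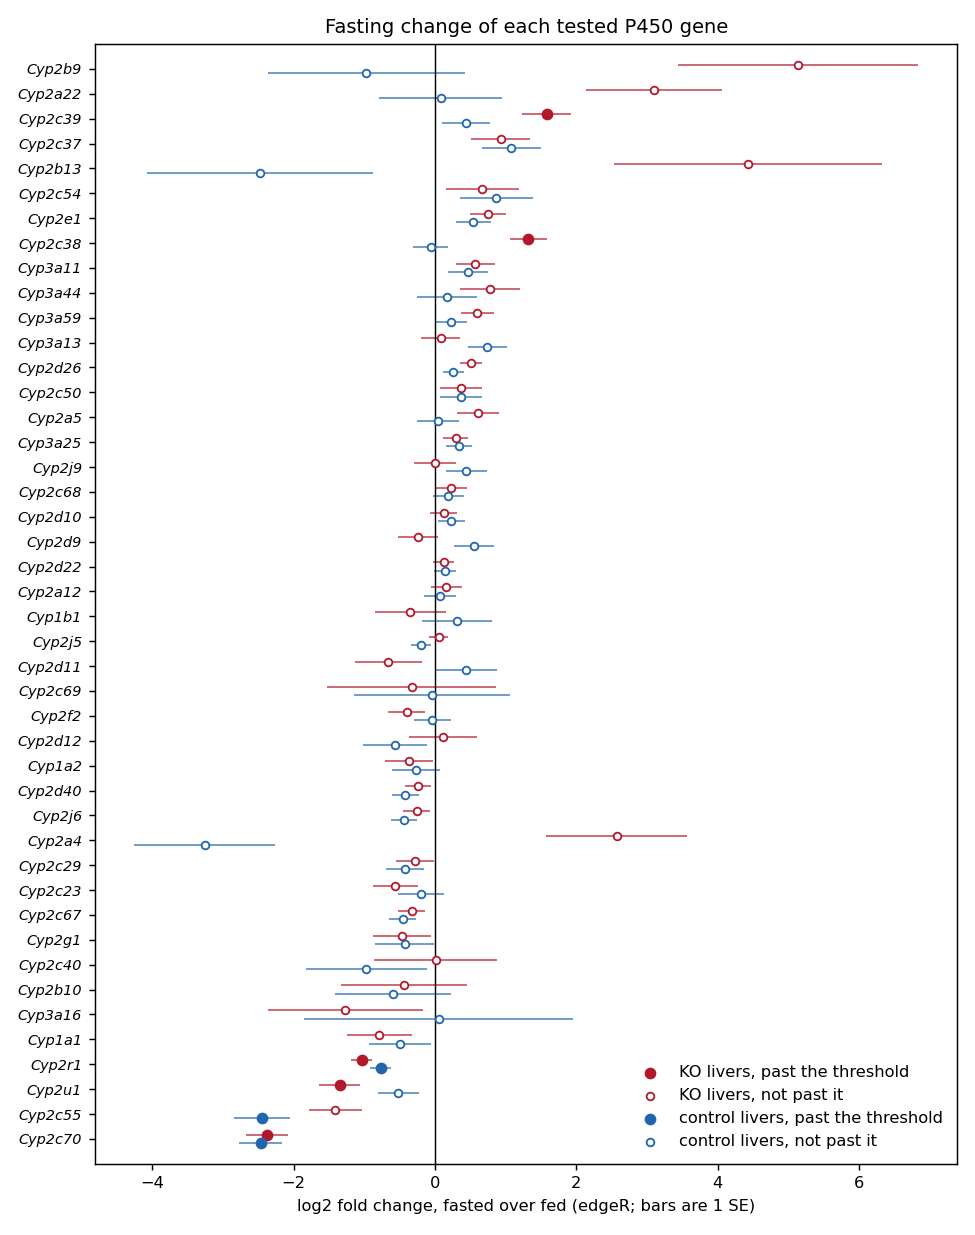
Log2 fold change, fasted over fed, of each tested P450 gene (rows) in KO livers and control livers, with bars of 1 standard error (SE); filled points passed the threshold. Cyp2c70 is at the bottom with -2.38 in KO and -2.47 in control livers, while Cyp2b9 and Cyp2b13 have wide bars.

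Cyp2c70 makes muricholic acids, the bile acids typical of mice, and showed the largest fall in the mean of both genotypes. It lies on chromosome 19 from 40153353 to 40187333 on the minus strand (ENSMUSG00000060613, build mm10, as are all positions here). Its level was 122, 108 and 196 TPM in fasted KO livers and 950, 670 and 578 TPM in fed KO livers. In control livers it was 90.9, 75.8 and 79.5 TPM after fasting and 423, 573 and 378 TPM in the fed state. Every fasted liver thus lay below every fed liver, in either genotype. The log2 fold change was -2.38 in KO livers (SE 0.3, adjusted p = 0.0033), -2.47 in control livers (SE 0.3, adjusted p = 0.0019) and -2.43 in their mean (SE 0.21, adjusted p = 9.9e-05). In bulk tissue, less RNA per cell and fewer cells that make it cannot be told apart.

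Cyp2c55, a gene of the same cluster (chromosome 19, 39007019 to 39042693, plus strand, ENSMUSG00000025002), was lower by a similar factor in control livers. Its level was 7.21, 2.34 and 8.51 TPM in fasted KO livers and 17.3, 13.6 and 16.7 TPM in fed KO livers. Fasted control livers held 3.02, 3.12 and 1.89 TPM, and fed control livers 14.1, 11.9 and 19.8 TPM. The groups did not overlap in either genotype. Fasting changed Cyp2c55 on the log2 scale by -2.45 in control livers (SE 0.4, adjusted p = 0.0077) and -1.93 in the mean (SE 0.27, adjusted p = 0.0013). In KO livers the change of -1.41 was not past the threshold (SE 0.37, adjusted p = 0.079), and the difference between genotypes was 1.04 (SE 0.54, adjusted p = 0.73).

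Sequence upstream of both genes is shown because they fell together in the control livers from the same cluster. The windows are the 250 bases before the RefSeq start (build GRCm38.p6), shortened for Cyp2c70 by the 47 bases that the deposited annotation places inside the gene. Capitals mark AGGTCA or its reverse complement TGACCT, the half-site of nuclear receptors. The Cyp2c70 window is chr19:40187334-40187536 on the minus strand and the Cyp2c55 window is chr19:39006769-39007018 on the plus strand.
Cyp2c70: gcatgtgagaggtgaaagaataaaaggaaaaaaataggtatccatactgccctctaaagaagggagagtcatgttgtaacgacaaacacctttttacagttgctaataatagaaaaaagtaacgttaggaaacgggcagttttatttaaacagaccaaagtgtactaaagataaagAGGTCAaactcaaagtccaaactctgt
Cyp2c55: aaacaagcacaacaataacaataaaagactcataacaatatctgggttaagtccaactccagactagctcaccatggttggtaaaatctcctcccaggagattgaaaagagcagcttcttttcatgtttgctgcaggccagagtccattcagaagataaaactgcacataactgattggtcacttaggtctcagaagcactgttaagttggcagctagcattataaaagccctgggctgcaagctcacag
The half-site was found in the Cyp2c70 window, 74 bases before the RefSeq start, and not in the Cyp2c55 window. Windows of this kind were at hand for 52 members (55 windows), and 29.1% of them held the half-site, against 14.0% of the 32851 windows of all genes. The core of the xenobiotic response element bound by the aryl hydrocarbon receptor, GCGTG or CACGC, was in 16.4% of the member windows and in 28.2% of all windows. Paralogs share much of their upstream sequence, so these shares do not rest on separate cases.

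Cyp2r1, the vitamin D hydroxylase of liver (chromosome 7, 114549682 to 114562972, minus strand, ENSMUSG00000030670), was lower in all fasted livers. Fasted KO livers held 10.4, 12.3 and 14.1 TPM and fed KO livers 25.1, 25 and 25 TPM. Fasted control livers held 13.6, 9.74 and 11.4 TPM and fed control livers 21.3, 20.1 and 18.7 TPM. The highest fasted value, 14.1 TPM, was below the lowest fed value, 18.7 TPM. On the log2 scale the change was -1.04 in KO livers (SE 0.15, adjusted p = 0.0048), -0.77 in control livers (SE 0.15, adjusted p = 0.015) and -0.9 in the mean (SE 0.11, adjusted p = 0.00032). The call in control livers was lost without fasted control liver 2 or 3 or fed control liver 1 or 2 (adjusted p from 0.056 to 0.068), and also in a fit of only the compared groups (0.056).

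Cyp2u1, which hydroxylates long-chain fatty acids (chromosome 3, 131288441 to 131303227, minus strand, ENSMUSG00000027983), fell in KO livers. Its level was 5.73, 5.43 and 4.43 TPM in fasted KO livers and 16.9, 10.7 and 11.4 TPM in fed KO livers. It was 6.1, 7.21 and 6.54 TPM in fasted control livers and 9.68, 12.4 and 6.43 TPM in fed control livers. The groups were apart in KO livers and overlapped in control livers through fed control liver 3. This was a log2 fold change of -1.35 in KO livers (SE 0.29, adjusted p = 0.038), -0.52 in control livers (SE 0.29, adjusted p = 0.36) and -0.93 in the mean (SE 0.2, adjusted p = 0.017). The KO call held without fed control liver 2 or 3 and was lost when any of the other 10 libraries was left out (adjusted p from 0.051 to 0.15). With no filter on low counts, the adjusted p was 0.12 in KO livers and 0.061 in the mean. The change did not differ between genotypes past the threshold (difference -0.83, SE 0.41, adjusted p = 0.72).

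Cyp2e1 (chromosome 7, 140763739 to 140774987, plus strand, ENSMUSG00000025479) was higher after fasting when both genotypes were averaged. It was at 11400, 12200 and 11900 TPM in fasted KO livers and at 5260, 7820 and 7940 TPM in fed KO livers. It was at 11500, 12400 and 9420 TPM in fasted control livers and at 9900, 7560 and 5760 TPM in fed control livers. KO livers were separated by feeding, and control livers overlapped. The log2 fold change in the mean was 0.64 (SE 0.18, adjusted p = 0.039), while 0.75 in KO livers (SE 0.25, adjusted p = 0.16) and 0.54 in control livers (SE 0.25, adjusted p = 0.26) missed the threshold. Leaving out any fasted KO or fed KO liver, fasted control liver 1 or 2, or fed control liver 2 ended the call (adjusted p from 0.057 to 0.099). Without fed control liver 3 the change in KO livers passed (adjusted p = 0.043), as it did by DESeq2 (0.035).

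Cyp2d26 (chromosome 15, 82790101 to 82794294, minus strand, ENSMUSG00000022445), the third most abundant member, rose by a small step. It was at 1500, 1440 and 1540 TPM in fasted KO livers and at 1020, 1050 and 1060 TPM in fed KO livers. It was at 1270, 1450 and 1340 TPM in fasted control livers and at 1250, 1110 and 1120 TPM in fed control livers. In TPM each fasted group lay above the fed group of its genotype. In CPM the control groups overlapped, at 878, 1160 and 940 CPM after fasting and 935, 861 and 693 CPM in the fed state. The log2 fold change in the mean was 0.38 (SE 0.1, adjusted p = 0.034), and it was 0.51 in KO livers (SE 0.15, adjusted p = 0.096) and 0.26 in control livers (SE 0.15, adjusted p = 0.36). The call was lost without any fasted KO or fed KO liver, fasted control liver 2 or fed control liver 2 (adjusted p from 0.054 to 0.086). In KO livers the change passed by DESeq2 (adjusted p = 0.0081) and without fed control liver 3 (0.036). It also passed there by limma on log2(TPM + 1) (0.015) or log2(TPM + 0.1) (0.014).

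Cyp2c38 and Cyp2c39 are neighbours that point away from each other on chromosome 19, the first from 39389556 to 39463075 on the minus strand (ENSMUSG00000032808) and the second from 39510862 to 39568529 on the plus strand (ENSMUSG00000025003). Cyp2c39 hydroxylates retinoic acid in mouse liver. Cyp2c38 was at 108, 81.1 and 108 TPM in fasted KO livers and at 23.3, 43.7 and 52.2 TPM in fed KO livers, and at 64.4, 70.6 and 70.4 TPM in fasted control livers and 69.9, 52 and 103 TPM in fed control livers. Cyp2c39 was at 17.6, 8.94 and 8.89 TPM in fasted KO livers and at 2.57, 3.64 and 5.54 TPM in fed KO livers, and at 5.71, 6.65 and 10.7 TPM in fasted control livers and 4.19, 5.19 and 8.37 TPM in fed control livers. Both genes separated fasted from fed in KO livers and overlapped in control livers.

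In KO livers the log2 fold change with fasting was 1.32 for Cyp2c38 (SE 0.26, adjusted p = 0.024) and 1.58 for Cyp2c39 (SE 0.35, adjusted p = 0.034). In control livers it was -0.06 for Cyp2c38 (SE 0.25, adjusted p = 0.93) and 0.44 for Cyp2c39 (SE 0.34, adjusted p = 0.52). The difference between genotypes was 1.38 for Cyp2c38 (SE 0.36, unadjusted p = 0.0027, adjusted p = 0.54) and 1.14 for Cyp2c39 (SE 0.48, adjusted p = 0.67), so it passed the threshold for neither. DESeq2 called that difference for Cyp2c38 (adjusted p = 0.041). KO livers differed from control livers in Cyp2c38 by -0.85 in the fed state (adjusted p = 0.77) and by 0.53 after fasting (adjusted p = 0.58). The fed groups overlapped in TPM. In CPM they did not, at 28.4, 50.1 and 60.9 CPM in KO and 84, 64.4 and 103 CPM in control livers. Averaged over genotypes, Cyp2c39 rose by 1.01 (SE 0.24, adjusted p = 0.021) and Cyp2c38 missed the threshold at 0.63 (SE 0.18, adjusted p = 0.053).

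The Cyp2c38 call in KO livers was lost without fasted KO liver 1 (adjusted p = 0.079), fasted KO liver 3 (0.087) or fed KO liver 2 (0.071), and also with no filter on low counts (0.071) and in a fit of only the compared groups (0.082). The Cyp2c39 call was lost without fasted KO liver 1 (adjusted p = 0.12), fasted KO liver 3 (0.06), fed KO liver 1 (0.16) or fed KO liver 2 (0.12). It was also lost in a fit of only the compared groups (0.051) and by limma on log2(TPM + 1) (0.068) or log2(TPM + 0.1) (0.067). The call of Cyp2c39 in the mean was lost without fed KO liver 1 or 2 or fasted control liver 3 (adjusted p from 0.05 to 0.055), and by limma (0.056 and 0.054).

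The coding sequences of Cyp2c38 and Cyp2c39 are 94.2% identical, with 85 differing bases of 1470. A stretch of 90 coding bases (286 to 375 counted from the start codon, in exons 2 and 3) is shown with capitals at the 15 positions where the copies differ, to show what a read must cover to be told apart. It spans chr19:39460369-39460622 on the minus strand in Cyp2c38 and chr19:39513290-39513543 on the plus strand in Cyp2c39, each with the intron between both exons.
Cyp2c38: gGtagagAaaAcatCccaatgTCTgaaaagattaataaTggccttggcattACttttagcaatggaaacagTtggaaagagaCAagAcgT
Cyp2c39: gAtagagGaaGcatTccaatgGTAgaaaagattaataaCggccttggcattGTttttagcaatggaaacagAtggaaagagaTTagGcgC
All windows of 100 coding bases in these genes were unique, meaning absent from the transcripts of every other gene in the GENCODE M21 annotation. Of windows of 50 coding bases, 86.3% were unique for Cyp2c38 and 86.1% for Cyp2c39. How reads that match several genes were treated is not stated in the labels or processing notes.

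The windows upstream of this pair are shown because both genes moved together in KO livers. Capitals mark GTAAACA or its reverse complement TGTTTAC, the core that forkhead factors such as Foxo3 can bind. The Cyp2c38 window is chr19:39463076-39463325 on the minus strand, and the Cyp2c39 window is chr19:39510572-39510821 on the plus strand, both 250 bases before the RefSeq start.
Cyp2c38: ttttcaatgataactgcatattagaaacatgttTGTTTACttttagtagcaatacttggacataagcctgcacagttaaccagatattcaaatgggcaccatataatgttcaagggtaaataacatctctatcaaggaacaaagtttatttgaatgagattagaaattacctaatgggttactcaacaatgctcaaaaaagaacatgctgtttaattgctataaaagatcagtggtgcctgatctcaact
Cyp2c39: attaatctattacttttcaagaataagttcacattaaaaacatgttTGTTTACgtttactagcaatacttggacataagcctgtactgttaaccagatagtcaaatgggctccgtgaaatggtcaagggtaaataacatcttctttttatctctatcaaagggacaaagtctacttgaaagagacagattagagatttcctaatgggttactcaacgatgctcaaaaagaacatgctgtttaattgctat
In an alignment of the windows, 71.0% of positions were identical, and the core was in both, 217 bases before the start in Cyp2c38 and 204 bases before it in Cyp2c39. Of the 55 member windows, 16.4% held the core, against 3.17% of all windows. The member share counts a further RefSeq window of Cyp2c39, chr19:39347096-39347345, which lies far before the gene and is not shown. Most of the other windows belong to Cyp3a paralogs. Paralogs share much of their upstream sequence, so this share does not rest on separate cases either. The other members with it were Cyp2j5, Cyp3a11, Cyp3a16, Cyp3a41a, Cyp3a41b and Cyp3a44, of which Cyp3a41a and Cyp3a41b were not tested and the rest passed the threshold in no comparison. A match of letters is a description of the window and no evidence of binding.

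**Figure D4:**
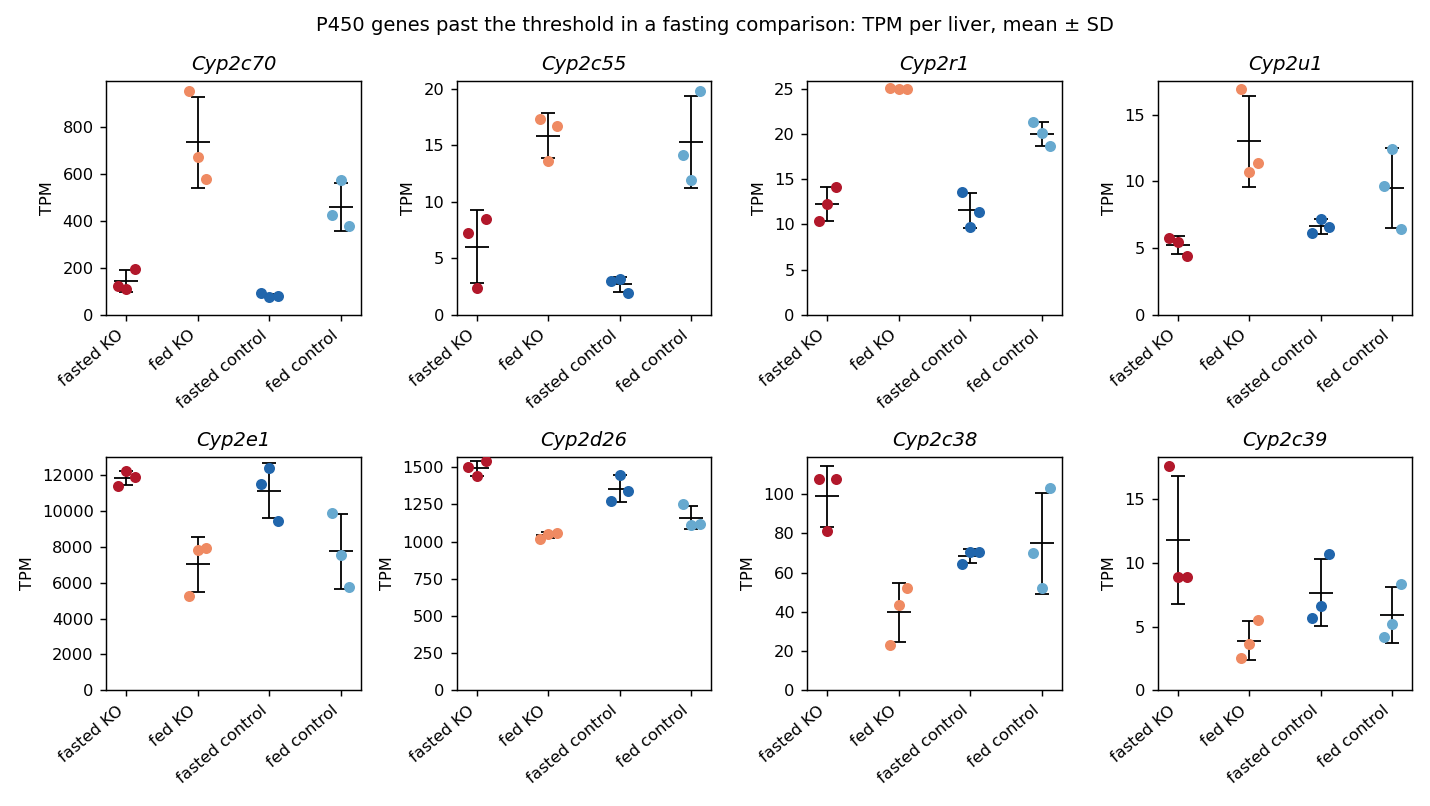
TPM of the 8 P450 genes that passed the threshold in at least 1 fasting comparison, with each liver as a point and the mean ± SD of each group (n = 3). Cyp2c70 and Cyp2r1 are lower in every fasted liver than in every fed liver, and Cyp2c38 separates fasted from fed livers in KO mice, at 81.1 to 108 against 23.3 to 52.2 TPM.

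Pericentral P450 genes, which are known from hepatocytes around the central vein, mostly missed the threshold. Of 7 listed genes (Cyp1a2, Cyp2a5, Cyp2c29, Cyp2c37, Cyp2c50, Cyp2e1 and Cyp3a11), none passed in KO or control livers and only Cyp2e1 passed in the mean, beside 9.07% of all tested genes. Their median log2 fold change with fasting was 0.57 in KO and 0.37 in control livers, beside -0.01 and 0 over all tested genes. Cyp3a11 was at 1660, 1170 and 2410 TPM in fasted KO and 1020, 1160 and 1350 TPM in fed KO livers, and at 1290, 2030 and 2010 TPM in fasted control and 1510, 1120 and 1340 TPM in fed control livers. Its ranges overlapped in both genotypes, and the change in the mean was 0.52 (SE 0.2, adjusted p = 0.12).

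Cyp2c37 was at 732, 581 and 1120 TPM in fasted KO and 304, 392 and 588 TPM in fed KO livers, and at 656, 1180 and 1120 TPM in fasted control and 688, 426 and 305 TPM in fed control livers. The groups overlapped narrowly in each genotype, by 1 liver of each group. In the mean the log2 fold change was 1 (SE 0.29, adjusted p = 0.062), and it passed by DESeq2 (adjusted p = 0.022). Cyp1a2, which oxidises caffeine, was at 232 to 453 TPM in fasted KO and 334 to 519 TPM in fed KO livers, and at 293 to 466 TPM in fasted control and 315 to 583 TPM in fed control livers. Its change in the mean was -0.32 (SE 0.24, adjusted p = 0.47). Cyp2f2, the periportal member, changed by -0.22 (SE 0.19, adjusted p = 0.52).

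Members known as sentinels of foreign chemicals were low. Cyp1a1, the classic target of the aryl hydrocarbon receptor, was at 0.242 to 1.32 TPM in all livers, and its change with fasting in the mean was -0.64 (SE 0.32, adjusted p = 0.24). Cyp2b10, the classic target of CAR, was at 1.38, 0.263 and 2.44 TPM in fasted KO and 2.56, 0.8 and 2.01 TPM in fed KO livers, and at 0.364, 5.24 and 1.78 TPM in fasted control and 3.49, 3.8 and 4.65 TPM in fed control livers. Fasted and fed livers overlapped in both genotypes, and the change in the mean was -0.51 (SE 0.6, adjusted p = 0.66). Among other low members, Cyp1b1 was at no more than 0.747 TPM, Cyp2d12 at no more than 0.811 TPM and Cyp2g1 at 0.952 to 5.06 TPM.

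A few of the receptors changed with fasting, and most did not pass the threshold. Of 13 listed sensors and partners, 12 were tested, and 2 rose in KO livers, beside 1.36% of all tested genes, 2 rose in control livers, beside 2.05%, and 3 rose and 2 fell in the mean, beside 4.55% and 4.52%. The median change was 0.21 in KO and 0.15 in control livers, beside -0.01 and 0 over all genes. Nr1i3 (CAR) was at 268, 264 and 307 TPM in fasted KO and 73.7, 115 and 107 TPM in fed KO livers, and at 241, 405 and 337 TPM in fasted control and 185, 112 and 114 TPM in fed control livers. All fasted livers were above all fed livers. Its log2 fold change was 1.5 in KO (SE 0.28, adjusted p = 0.017) and 1.29 in control livers (SE 0.28, adjusted p = 0.023). Ahr rose in control livers (0.78, SE 0.19, adjusted p = 0.037) and in the mean (0.68, SE 0.13, adjusted p = 0.0071), and Ppara, the fatty acid receptor, in KO livers (0.56, SE 0.13, adjusted p = 0.036). In the mean Rxra rose by 0.37 (adjusted p = 0.034), while Nr3c1, the glucocorticoid receptor, fell by 0.32 (adjusted p = 0.012) and Arnt, the partner of Ahr, fell by 0.25 (adjusted p = 0.031). Nr1i2 (PXR) changed by 0.25 in the mean (SE 0.11, adjusted p = 0.17).

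Most listed genes of electron transfer and of heme synthesis and breakdown did not pass the threshold with fasting. All 16 listed genes were tested, and 1 changed in KO livers (higher), beside 2.48% of all tested genes, while 3 changed in control livers (1 higher and 2 lower), beside 4.14%. In the mean 1 rose and 2 fell, beside 9.07% of all tested genes in either direction. The median change was 0.02 in KO and -0.03 in control livers. Cpox, an enzyme of heme synthesis, was at 106, 91.7 and 93 TPM in fasted KO and 39.8, 48 and 57.1 TPM in fed KO livers, and at 87.7, 102 and 95.8 TPM in fasted control and 64.2, 43.9 and 57.9 TPM in fed control livers. Its log2 level rose by 1 in KO (SE 0.16, adjusted p = 0.0081) and by 0.83 in control livers (SE 0.16, adjusted p = 0.013). Cyb5b and Cyb5r3, a cytochrome b5 and its reductase, fell in control livers by 1.05 and 1.02 (SE 0.17 each, adjusted p = 0.0058 and 0.0055). In KO livers their changes were -0.63 (adjusted p = 0.075) and -0.49 (adjusted p = 0.16). Cyb5a, another cytochrome b5, pointed the other way without passing. It changed by 0.2 in control livers (adjusted p = 0.48), 0.35 in KO livers (adjusted p = 0.26) and 0.27 in the mean (adjusted p = 0.11). Ppox and Alas1, both of heme synthesis, changed by -0.38 (adjusted p = 0.064) and 0.73 (adjusted p = 0.15) in KO livers. Por, the main electron donor, changed by 0.09 in KO (adjusted p = 0.86) and by 0.65 in control livers (SE 0.17, adjusted p = 0.05, at the threshold and not past it).

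Among 25 listed enzymes of other oxidative and hydrolytic families, 2 rose with fasting in KO livers (Aldh3a2 and Ephx2), beside 2.48% of all tested genes in either direction, and 1 rose (Ephx2) and 2 fell (Adh1 and Ces2e) in control livers, beside 4.14%. Ephx2, the soluble epoxide hydrolase that acts on epoxides made by P450 enzymes, was at 865, 798 and 912 TPM in fasted KO and 483, 535 and 621 TPM in fed KO livers, and at 1010, 1180 and 1220 TPM in fasted control and 642, 603 and 589 TPM in fed control livers. It rose by 0.65 in KO (SE 0.16, adjusted p = 0.049) and by 0.93 in control livers (SE 0.16, adjusted p = 0.0073). The median change of the list was 0.15 in KO and -0.01 in control livers. In the mean 3 rose (Ephx2, Fmo2 and Aldh3a2) and 2 fell (Adh1 and Ces3b), beside 9.07% of all tested genes in either direction.

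Between KO and control livers no P450 gene passed the threshold in edgeR: 0 of 44 in fed livers, 0 in fasted livers and 0 in their mean, where 0%, 0.0315% and 0.0126% of all tested genes passed. At an unadjusted p under 0.05 the counts were 8, 5 and 4 of the 44 members, beside 970, 1429 and 1255 of the 15862 tested genes. DESeq2 called 0, 0 and 1 member. The median size of the change was 0.19 over members and 0.14 over all genes in fed livers, and 0.28 and 0.17 in fasted livers. All KO livers were above all control livers for 3 members and below for 7 in the fed state, beside 4.41% and 6.22% of all tested genes. In the fasted state the counts were 4 and 2, beside 6.37% and 6.31%.

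The gene that DESeq2 called was Cyp2c70, the muricholic acid enzyme. Its TPM was higher in KO livers in both feeding states without overlap of the groups. In CPM, Cyp2c70 overlapped between fed groups, at 799, 530 and 465 CPM in KO and 351, 490 and 259 CPM in control livers. In edgeR it was higher by a log2 difference of 0.71 in the fed state (SE 0.29, adjusted p = 0.81), 0.8 in the fasted state (SE 0.29, adjusted p = 0.52) and 0.75 in the mean (SE 0.2, adjusted p = 0.49), against an adjusted p of 0.048 by DESeq2. The fall with fasting was of like size in both genotypes (difference 0.1, SE 0.41, adjusted p = 0.98). Cyp2c55 differed by 1.17 after fasting (SE 0.4, adjusted p = 0.52) and by 0.13 in the fed state (SE 0.36, adjusted p = 0.98). Cyp2r1 differed by 0.36 in fed livers, where the groups did not overlap (SE 0.15, adjusted p = 0.81), and by 0.09 after fasting (SE 0.16, adjusted p = 0.89).

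In fasted livers Cyp2j5 was at 643, 567 and 633 TPM in KO and 485, 525 and 476 TPM in control livers, with no overlap in TPM. In CPM the groups overlapped, at 594, 537 and 630 CPM in KO and 439, 547 and 438 CPM in control livers. The log2 difference was 0.31 (SE 0.14, adjusted p = 0.54). Cyp2d11 was at 1.48, 1.82 and 1.96 TPM in KO and 4.27, 5.68 and 3.79 TPM in control livers of fasted mice, a difference of -1.39 (SE 0.46, adjusted p = 0.52). Cyp3a13 was at 267, 146 and 194 TPM in KO and 138, 130 and 130 TPM in control livers of fed mice, a difference of 0.65 (SE 0.28, adjusted p = 0.81). Each of these separated the groups in TPM in 1 feeding state, and none passed the threshold. Cyp3a16 was at 0.0711, 1.38 and 1.22 TPM in fed KO livers and 0.197, 0 and 0 TPM in fed control livers, with at most 17 counts in a library. Its groups overlapped, and values this low rest on few counts.

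The widest differences between livers were in genes known to be higher in females. Of 9 such members, 7 were tested and none passed in any comparison. Not all of them spread widely: Cyp3a44 ranged only from 0.627 to 2.01 TPM over all livers. Cyp2b9, a female-predominant member of the Cyp2b cluster (chromosome 7, 26173411 to 26210661, plus strand, ENSMUSG00000040660), was at 379, 41.7 and 106 TPM in fasted KO livers and 0.394, 1.43 and 12.9 TPM in fed KO livers. It was at 6.75, 101 and 44.9 TPM in fasted control livers and 62.1, 13.2 and 274 TPM in fed control livers. Within single groups its level thus varied many-fold between animals of the same sex, genotype and feeding state. All fed KO livers were below all fed control livers (log2 difference -4.4, SE 1.6, adjusted p = 0.81) and below all fasted KO livers (5.14 for fasted over fed, SE 1.7, adjusted p = 0.18).

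Cyp2a4, a steroid hydroxylase higher in female mouse liver (chromosome 7, 26307169 to 26315088, plus strand, ENSMUSG00000074254), was at 30.1, 6.02 and 39.3 TPM in fasted KO livers and 6.44, 1.54 and 4.42 TPM in fed KO livers. It was at 2.87, 7.47 and 2.85 TPM in fasted control livers and 25.4, 9.29 and 109 TPM in fed control livers. Fed KO livers were below all fed control livers, and fasted control livers were below all fed control livers. The KO minus control difference was -3.33 in the fed state (SE 1, adjusted p = 0.79) and 2.5 after fasting (SE 1, adjusted p = 0.53). Fasting changed it by 2.57 in KO (SE 1, adjusted p = 0.29) and by -3.26 in control livers (SE 1, adjusted p = 0.13).

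Cyp2b13 and Cyp2a22 showed a like spread. Cyp2b13, of the same cluster as Cyp2b9, was at 34.1, 0.712 and 1.67 TPM in fasted KO and 0.0656, 0.375 and 1.2 TPM in fed KO livers, and at 0.0683, 2.58 and 2.98 TPM in fasted control and 4.06, 2.37 and 29.9 TPM in fed control livers. Cyp2a22, which was not on the list of female-biased genes, was at 97.4, 20.9 and 22.9 TPM in fasted KO and 4.29, 4.45 and 7.34 TPM in fed KO livers, and at 5.54, 28.1 and 30.7 TPM in fasted control and 11.1, 7.77 and 49.8 TPM in fed control livers. Fed control liver 3 had the highest fed level of Cyp2b9, Cyp2b13, Cyp2a4 and Cyp2a22, and fasted KO liver 1 the highest level of all 12 libraries for Cyp2b9, Cyp2b13 and Cyp2a22. The remaining listed members did not share this order: fed control liver 3 was the lowest fed control liver for Cyp2c40 (5.21 TPM, against 31.1 and 15.6) and for Cyp2c69 (0.384 TPM, against 16 and 8.44).

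The log2 difference of KO from control in fed livers without fed control liver 3 was -2.99 for Cyp2b9 (adjusted p = 0.96), -2.61 for Cyp2b13 (adjusted p = 0.97), -2.09 for Cyp2a4 (adjusted p = 0.96) and -0.87 for Cyp2a22 (adjusted p = 0.98). With that liver the values were -4.4, -4.28, -3.33 and -1.94, with adjusted p of 0.81, 0.81, 0.79 and 0.81. The direction was the same and the size smaller.

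**Figure D5:**
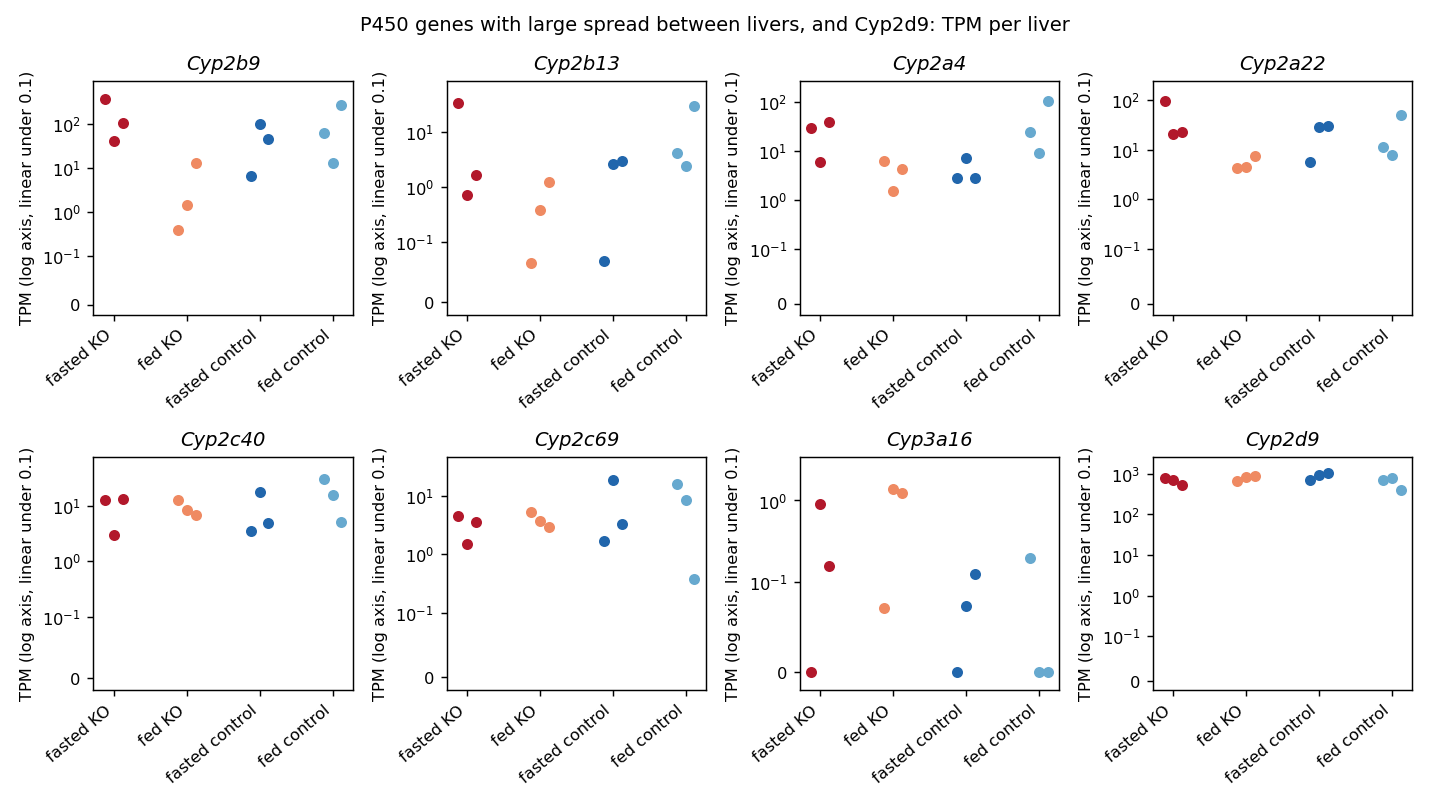
TPM in each liver of the 4 members with matching extremes (Cyp2b9, Cyp2b13, Cyp2a4 and Cyp2a22), of the female-biased Cyp2c40, Cyp2c69 and Cyp3a16, and of the male-biased Cyp2d9, on log axes that turn linear under 0.1. Fed KO livers sit low in the upper row, with Cyp2b9 from 0.394 to 12.9 TPM, while Cyp2d9 stays between 394 and 1060 TPM in all livers.

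The copies behind these values are close. Cyp2a4 and Cyp2a5 are 98.4% identical in coding sequence (23 differing bases of 1482), and Cyp2b9 and Cyp2b13 are 92.7% identical (107 of 1473). Stretches of 90 coding bases are shown with capitals where the pair differs, because the copies differ widely in level: Cyp2a5 was at 706 to 1570 TPM and Cyp2a4 at 1.54 to 109 TPM. Whether reads were shared between them was not tested. The Cyp2a pair is shown from coding base 580 to 669 in exons 4 and 5 (chr7:26309014-26310720 in Cyp2a4 and chr7:26837177-26838882 in Cyp2a5), and the Cyp2b pair from 1039 to 1128 in exon 7 (chr7:26200807-26200896 in Cyp2b9 and chr7:26088319-26088408 in Cyp2b13), all on the plus strand.
Cyp2a4: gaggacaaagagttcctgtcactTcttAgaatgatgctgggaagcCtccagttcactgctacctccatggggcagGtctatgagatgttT
Cyp2a5: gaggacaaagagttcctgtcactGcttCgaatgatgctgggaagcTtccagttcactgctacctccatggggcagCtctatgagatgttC
Cyp2b9: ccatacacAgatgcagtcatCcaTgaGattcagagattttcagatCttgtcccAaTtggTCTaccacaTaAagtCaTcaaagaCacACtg
Cyp2b13: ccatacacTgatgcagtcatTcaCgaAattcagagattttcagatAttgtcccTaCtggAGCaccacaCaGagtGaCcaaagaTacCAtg
The Cyp2a stretch holds 5 differences and the Cyp2b stretch 17. Of windows of 100 coding bases, 86.8% were unique among the transcripts of all genes for Cyp2a4, 80.1% for Cyp2a5, 99.0% for Cyp2b9 and 88.5% for Cyp2b13. For windows of 50 coding bases the shares were 59.5%, 48.4%, 87.3% and 66.9%. Cyp2a22 is 97.0% identical to Cyp2a12, which was at 273 to 483 TPM, and 69.9% of its 50-base windows were unique. Over all 60 members, 18 have a copy over 95% identical, and the median member had 99.6% of its 100-base windows to itself. Cyp2c70, Cyp2c55 and Cyp2e1 had all of theirs.

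Cyp2d9, a male-predominant testosterone hydroxylase, was at 778, 691 and 545 TPM in fasted KO and 673, 817 and 872 TPM in fed KO livers, and at 723, 964 and 1060 TPM in fasted control and 696, 789 and 394 TPM in fed control livers. Its lowest liver was fed control liver 3. Fasting changed it by -0.24 in KO (SE 0.28, adjusted p = 0.76) and by 0.55 in control livers (SE 0.28, adjusted p = 0.31). The other listed male-biased member, Cyp2u1, is described above.

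Sex-biased and growth hormone genes outside these families were also examined. Of 26 listed, 25 were tested, and 1 rose and 3 fell with fasting in KO livers, beside 2.48% of all tested genes in either direction. In control livers 1 rose and 2 fell, beside 4.14%, and in the mean 2 rose and 5 fell, beside 9.07%. None passed between KO and control. Hsd3b5, a male-specific steroid dehydrogenase, was at 0.218, 1.29 and 0.526 TPM in fasted KO and 128, 112 and 162 TPM in fed KO livers, and at 2.23, 4.68 and 2.64 TPM in fasted control and 40.5, 101 and 0.254 TPM in fed control livers. It fell by 7.6 on the log2 scale in KO livers (SE 1.6, adjusted p = 0.045). Fed control liver 3, high in Cyp2b9 and Cyp2a4, was thus low in Hsd3b5, while the fasted livers were low in it whatever their Cyp2b9 level. Cish, a feedback gene of growth hormone signalling, fell in control livers (-2.59, SE 0.46, adjusted p = 0.013), and Acot3, which is higher in female liver, rose in KO livers (3.14, SE 0.58, adjusted p = 0.027). Nudt7, a nudix hydrolase of peroxisomes, fell in both genotypes, by 1.63 in KO (SE 0.3, adjusted p = 0.017) and by 1.55 in control livers (SE 0.3, adjusted p = 0.015). C6, a complement component, fell in KO livers (-1.99, SE 0.35, adjusted p = 0.02), and Cux2, a female-predominant transcription factor, rose in control livers (2.54, SE 0.52, adjusted p = 0.017).

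The interaction of genotype and fasting was called for no member in edgeR (0 of 44, beside 0.0063% of all tested genes), and for 2 by DESeq2. At an unadjusted p under 0.05 in edgeR there were 6 members, beside 1141 of the 15862 tested genes. These 6 were Cyp2c38 and Cyp2c39, given above, Cyp2a4 (difference of fasting changes 5.83, SE 1.5, unadjusted p = 0.0032, adjusted p = 0.55), Cyp2b9 (6.1, SE 2.1, adjusted p = 0.62), Cyp2b13 (6.91, SE 2.4, adjusted p = 0.63) and Cyp2a22 (3.02, SE 1.3, adjusted p = 0.68). In all 6 the change with fasting was more positive in KO than in control livers. The calls by DESeq2 were Cyp2a4 (adjusted p = 0.013) and Cyp2c38 (adjusted p = 0.041). Without fed control liver 3 the edgeR difference was 4.59 for Cyp2a4 and 1.21 for Cyp2c38 (adjusted p = 0.58 each).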

How the data were processed

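Liver RNA of 12 mice was sequenced as strand-specific poly(A) libraries, per the labels' protocols. The submitters' processing notes name bcl2fastq 2.19, Trimmomatic 0.38, HISAT2 2.1.0, featureCounts 1.6.3, DESeq2 1.24.0 and build mm10. How strand and multiply matching reads were handled, and which annotation was used, is not given in the sources used here. Raw counts by gene and a matching TPM table were deposited by the authors, and the positions of all 60 members equal those of GENCODE M21. Counts were tested with the quasi-likelihood test of edgeR 4.0.16 (R 4.3.3; TMM factors 0.923 to 1.12, filterByExpr, robust dispersions) in 1 fit of all 12 libraries, grouped by sample title. Tests were 2-sided and adjusted by the Benjamini-Hochberg method over the 15862 tested genes, with a threshold of 0.05 and no minimum fold; the 39625 genes with fewer counts were left out. Fold changes and differences are log2 values from this fit, and levels per length are the deposited TPM. The filter on low counts can pass a gene through 1 group alone.

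The members and the gene lists were chosen with earlier results of these data known. An item left out of the lists is not reported here. Genes named were every member past the threshold, the 12 highest by mean TPM and the 6 with the smallest p in each comparison. Also named were the listed sex-biased, zonal and inducible members and the most abundant member of each subfamily. Of the listed sensors and of the redox and heme genes, the 4 with the smallest p in each fasting comparison were named. None of these passed in the other comparisons. Cyb5a was added beside Cyb5b. Of the other lists, not every gene that passed with fasting was described. Left out were, among others, Oat (1.04 in control livers, adjusted p = 0.033) and Pck1 (1.21 in control livers, adjusted p = 0.013). Onecut1 (-1.71 in the mean, adjusted p = 0.023) and 1 cholangiocyte marker, lower in KO livers, were left out as well. Counting error was below the spread between livers: the median counting error was 25% for members under 30 counts, 10% from 30 to 300 counts and 0.96% for the most abundant 21, beside a median coefficient of variation between livers of 41%, 39% and 22%. Gene copies were compared by coding sequence with Biopython 1.88, and upstream windows and motifs came from RefSeq (GRCm38.p6). Alternatives were other size factors (RLE), other filters, DESeq2 1.42.0, limma 3.58.1 on log2(TPM + 1) and log2(TPM + 0.1), protein-coding genes only, only the compared groups, a replicate block and leaving out each library. The test script was tested on simulated counts.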

Additional observations from a re-analysis of the deposited data

How the results depend on the processing

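For the sensitivity runs, 71 single-gene results were recomputed under 1456 alternatives. Of these, 1372 kept direction and side of the threshold, 53 lost the threshold, 31 gained it and 0 changed sign. The 71 results were chosen mainly for small p in the same data, and the alternatives reuse the same libraries. Stable signs are therefore no independent check. The falls of Cyp2c70 in each genotype and of Cyp2c55 in control livers passed under every alternative run. In fasted against fed KO livers, 5 members were called, against 3 with no filter on low counts, 3 with only the compared groups and 10 by DESeq2; the range was 2 to 7 over single libraries left out. In fasted against fed control livers the 3 calls ranged from 2 to 4, and in the mean the 7 calls ranged from 4 to 10. For the 4 comparisons with 0 calls, the count stayed at 0 without any single library, and DESeq2 gave 1 for KO against control in the mean and 2 for the interaction. The cause of these differences was not tested. Size factors by RLE moved the median of all genes by at most 0.012.

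The replicate numbers showed no sign of pairing the livers. Of 18 same-numbered pairs, 3 had a correlation of deviations above 0.1 (range -0.32 to 0.16), and 2 of 12 libraries correlated best with their own number. Correlations over 3 livers a group cannot show that no litter or day was shared. With a replicate block, 5 members were called with fasting in KO livers, 3 in control livers and 6 in the mean, where Cyp2c38 was gained (adjusted p = 0.04) and Cyp2d26 (0.069) and Cyp2e1 (0.065) were lost, and 0 in the other comparisons. With 3 livers a group, members with few counts are limited by depth and by the spread between livers: the median counting error was 25% under 30 counts, beside a median spread of 41%.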
